A study of Mus musculus with 15 samples.

Results

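Neuropeptides and the proteins of the granules that carry them were followed across 15 mouse brain libraries through 10 genes: Npy, Sst, Cort, Vip, Cck, Tac1, Crh, Crhbp, Vgf and Scg2. They were chosen by symbol from the 46078 genes of the count table, each matched 1 row, and all 10 passed the filter on low counts. The libraries came from 3 groups of 5 mice. The first group held APP-PS1 mice injected with an antibody against CD8a, a surface protein of cytotoxic T cells, the second APP-PS1 mice injected with PBS, and the third wild-type (WT) mice injected with PBS. APP-PS1 mice carry 2 transgenes under the prion protein promoter, which drives them in central neurons: Swedish-mutant amyloid precursor protein, built from mouse and human sequence, and human presenilin 1 with the dE9 mutation. All mice were 12 months old at treatment, which ran for 4 weeks and 10 injections, of 0.8 mg antibody or of 100 µL PBS. By label 2 mice given the antibody, 2 APP-PS1 mice given PBS and 4 WT mice were female. RNA was taken from a brain region dissected from 1 hemisphere after perfusion, and the sources used here do not say which region. An isotype antibody was not analysed here, so the effect of CD8a binding and that of antibody injection cannot be told apart.

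Neuropeptides are made as precursors, cut by proprotein convertases inside dense core granules and released by calcium entry, mostly during sustained firing. In cortex and hippocampus many of them mark classes of GABAergic interneuron. Somatostatin, neuropeptide Y and cortistatin are made by dendrite-targeting cells, and vasoactive intestinal peptide by cells that inhibit other interneurons. Cholecystokinin is made both by basket cells and by excitatory neurons. Granins such as VGF and secretogranin II are packed with the peptides and are themselves cut into active fragments. Loss of somatostatin and neuropeptide Y in Alzheimer's disease brain, and low VGF in cerebrospinal fluid, have been described in patients.

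Counts assigned to genes ranged from 17736524 to 36485809 per library, so that 3 counts equalled 0.0822 to 0.169 CPM (counts scaled to library size by the TMM method), a limit that covers counting error only. App, which the transgene shares with the mouse gene, lay between 2467 and 3153 CPM in the mice given the antibody, 2420 and 3036 CPM in APP-PS1 mice given PBS, and 1230 and 1324 CPM in WT mice. Cd8a had 3 to 21 counts per library, too few to check the depletion. The 10 pan-neuronal markers were present at a summed 8028 to 8903 CPM in the mice given the antibody, 8158 to 8765 CPM in APP-PS1 mice given PBS and 7876 to 8738 CPM in WT mice. Ttr, the main transcript of choroid plexus, exceeded 1000 CPM in 5 libraries, namely anti-CD8a replicate 1, APP-PS1 PBS replicates 2 and 5, and WT replicates 3 and 5. The library labelled APP-PS1 PBS replicate 1 and male held Xist at 1922 CPM and Y-linked transcripts at 2.08 CPM, against its label, and with sex read from these genes the calls of the 10 genes were the same.

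Per kilobase of exon (RPKM), Sst was the most abundant of the 10 genes in WT brain. Sst stood at 142 ± 14.3 RPKM (SD, n = 5), followed by Scg2 at 85.9 ± 5.48, Cck at 69.1 ± 6.36 and Npy at 57.2 ± 4.11 RPKM. Below these came Vgf at 23.6 ± 1.91, Crhbp at 16.0 ± 1.53, Vip at 6.47 ± 1.19 and Cort at 5.09 ± 1.07 RPKM. Tac1 at 2.56 ± 0.379 and Crh at 1.21 ± 0.266 RPKM were the lowest. The mean ± SD intervals of Vip and Cort, neighbours in this order, overlapped. Crh rested on 13 to 65 counts per library and Cort on 42 to 128, so their values were the least precise.

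Stretches upstream of the RefSeq start sites are shown because the cyclic AMP response element, an 8-base palindrome first described in the somatostatin promoter, is the classical route from neuronal activity to peptide genes. Build GRCm38.p6 of RefSeq held promoters for 8 of the 10 genes, all but Crh and Vgf. In the lines that follow, capitals mark TGACGTCA or its 5-base core TGACG, on either strand (CGTCA on the opposite one). Sst, at chr16:23890874-23890903 (minus strand), and Scg2, at chr1:79440076-79440105 (minus strand), held the whole palindrome.
Sst: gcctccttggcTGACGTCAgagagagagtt
Scg2: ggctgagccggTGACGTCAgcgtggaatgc
Crhbp (chr13:95444878-95444907, minus strand) and Tac1 (chr6:7555006-7555035, plus strand) held the core alone.
Crhbp: gagctggaccctCGTCAttgccacgcattt
Tac1: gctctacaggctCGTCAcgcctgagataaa
For Cort (chr4:149126764-149126883, minus strand), Vip (chr10:5639098-5639217, plus strand), Cck (chr9:121495695-121495814, minus strand) and Npy (chr6:49822590-49822709, plus strand), the last 120 bases before the start lie outside the GENCODE gene and are given whole.
Cort: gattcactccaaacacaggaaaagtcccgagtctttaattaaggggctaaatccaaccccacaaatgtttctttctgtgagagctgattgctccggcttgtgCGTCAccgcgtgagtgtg
Vip: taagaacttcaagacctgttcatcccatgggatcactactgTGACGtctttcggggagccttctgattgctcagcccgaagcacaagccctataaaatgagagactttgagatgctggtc
Cck: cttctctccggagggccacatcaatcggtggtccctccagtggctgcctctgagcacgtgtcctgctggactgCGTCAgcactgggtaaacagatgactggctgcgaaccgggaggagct
Npy: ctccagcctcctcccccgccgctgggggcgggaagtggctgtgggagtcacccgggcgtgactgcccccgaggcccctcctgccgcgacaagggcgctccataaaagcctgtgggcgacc

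Within 250 bases upstream, the palindrome was found 48 bases before the Sst start and 68 bases before the Scg2 start, in 2 of 8 promoters, against 1.55% of all 32817 RefSeq mouse promoters searched. The core TGACG, which the palindrome contains, was found in 7 of 8 promoters, Npy being the exception, against 17.7% of all. The sites of Sst, Scg2, Crhbp and Tac1 lie inside the GENCODE gene, which starts farther upstream than the RefSeq one. The Sst match was known beforehand, because the element was first described there, and it counts in both shares. These shares are therefore no test of enrichment in these promoters. The matches are letters and not measured binding.

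The comparison of APP-PS1 with WT mice, both given PBS, asks how the genes stand in the model itself. Npy, Crhbp and Vgf fell by 28.01 to 29.5% in APP-PS1 mice, and their 2 sets of 5 mice did not overlap. Sst, Cort and Cck had lower estimates, with 95% intervals below 0, without passing the adjusted test. The intervals of Scg2, Tac1, Crh and Vip held 0. By edgeR's quasi-likelihood test, adjusted over all 18974 genes tested, 3 of 10 genes fell and 0 rose, where 0.0896% of all genes fell and 0.938% rose. Ranges that did not overlap on the lower side were found in 3 of 10 genes and in 1.06% of all genes. DESeq2 called 4 of the 10, adding Sst, where it called 0.39% of all genes lower. Estimates were lower for 9 of the 10 genes, as for 53.1% of all genes. The median log2 fold change of the 10 genes was -0.38, against -0.01 over all genes. In tissue RNA, fewer cells of a type and less RNA per cell cannot be told apart.

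**Figure D1:**
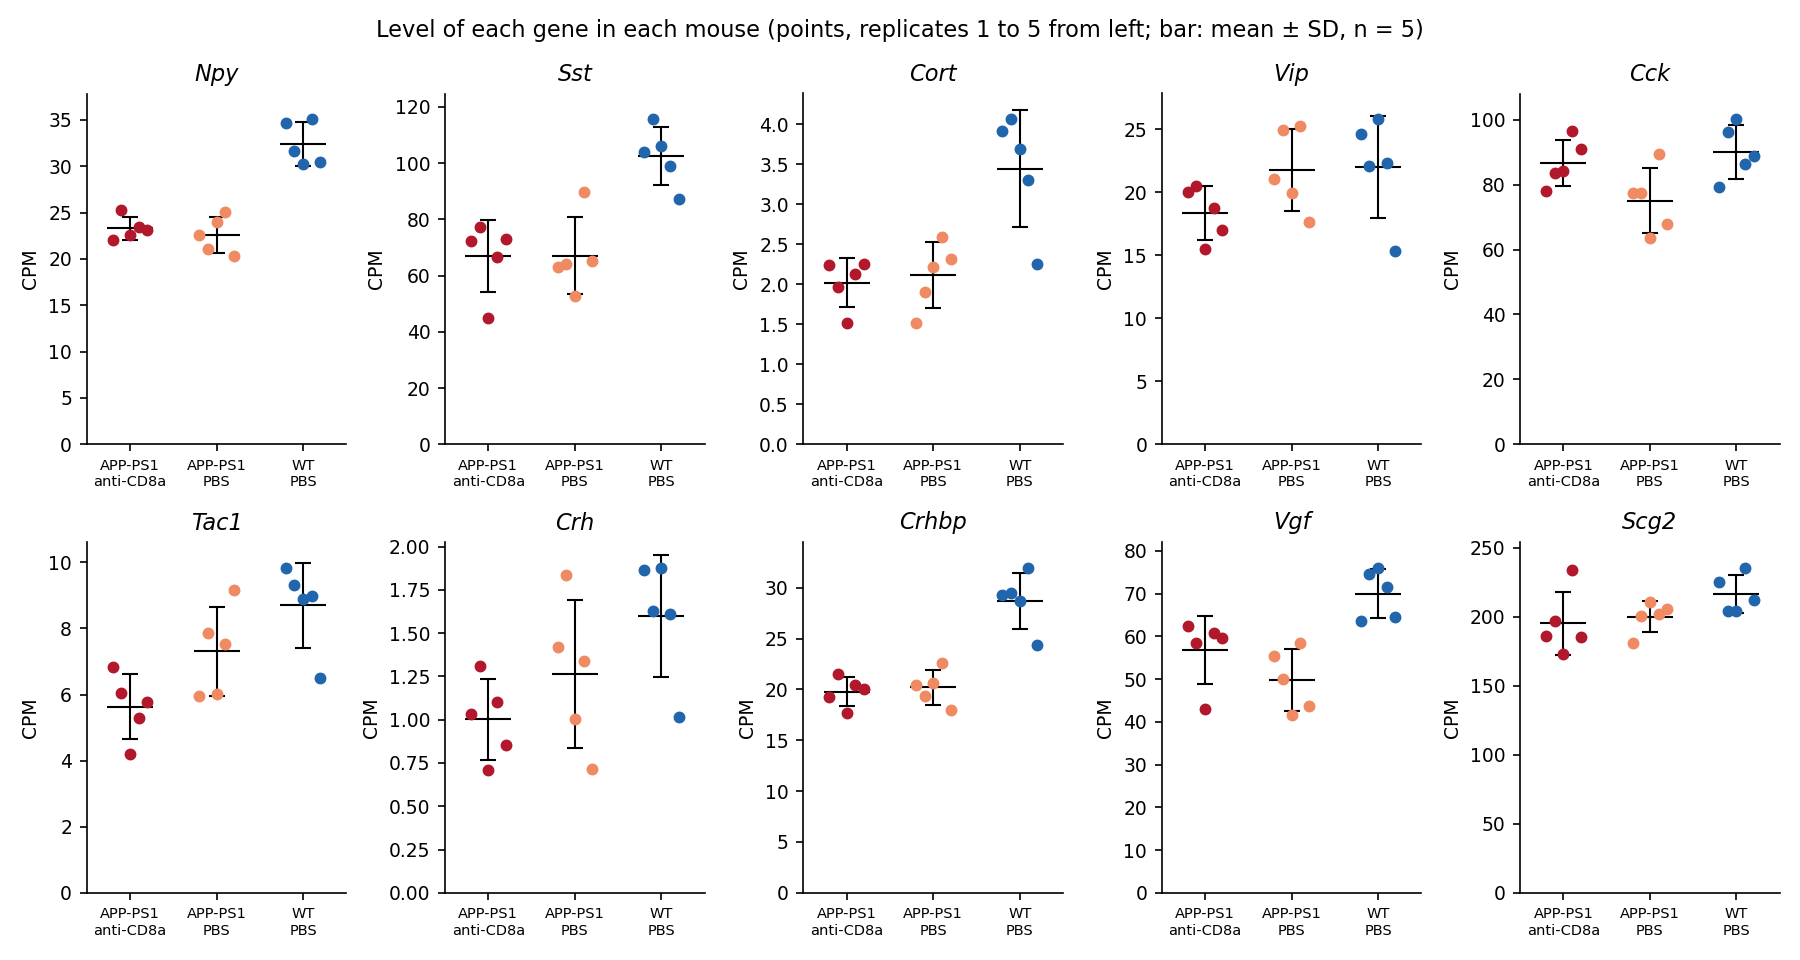
CPM of each of the 10 genes (vertical axes, from 0) in each mouse of the 3 groups (horizontal axis), with replicates 1 to 5 from left to right and bars for the mean ± SD of 5 mice. Npy, Crhbp and Vgf in both APP-PS1 groups sit below every WT mouse, while Vip, Cck and Scg2 overlap in all groups.

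Npy (ENSMUSG00000029819, chr6:49822710-49829507, plus strand) encodes neuropeptide Y, which damps glutamate release. It measured 22.6, 21.1, 24.0, 25.0 and 20.3 CPM in APP-PS1 mice given PBS, against 34.7, 31.6, 30.2, 35.04 and 30.4 CPM in WT mice. The highest APP-PS1 mouse was below the lowest WT mouse. Npy had a log2 fold change of -0.49 ± 0.07 (SE) and an adjusted p of 0.00168 by edgeR, and it ranked 39 among all genes by p. An exact permutation test of mean log2 CPM, two-sided, gave p = 0.00794, the smallest that 5 against 5 mice allow.

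Sst (ENSMUSG00000004366, chr16:23889573-23890958, minus strand) encodes somatostatin, which inhibits hormone and transmitter release. It measured 63.2, 64.2, 52.7, 89.8 and 65.04 CPM in APP-PS1 mice given PBS, against 104, 115.5, 105.9, 99.0 and 87.3 CPM in WT mice. In APP-PS1 mice 4 of 5 values were below every WT value, and replicate 4 reached into the WT range. The log2 fold change of -0.56 ± 0.14 missed the threshold, with an adjusted p of 0.0951 by edgeR and of 0.0105 by DESeq2. Without that APP-PS1 replicate the change was -0.73, with an adjusted p of 0.0297 by edgeR. Without anti-CD8a replicate 3 it was -0.50, with an adjusted p of 0.00737. That library is in neither group compared, but it shares the fit, the gene filter and the scaling. Sst passed in these 2 of 15 fits that left out 1 library, and in the others the adjusted p reached 0.299.

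Cort (ENSMUSG00000028971, chr4:149125034-149126763, minus strand) encodes cortistatin, a peptide close to somatostatin that binds the same receptors. It measured 1.52, 1.91, 2.22, 2.59 and 2.32 CPM in APP-PS1 mice given PBS, against 3.92, 4.06, 3.70, 3.31 and 2.25 CPM in WT mice. WT replicate 5, the only WT mouse labelled male, was the single one inside the APP-PS1 range. For Cort the log2 fold change was -0.62 ± 0.18, with an adjusted p of 0.172 by edgeR, and -0.81 with an adjusted p of 0.0436 without that WT replicate. Cort passed in only this 1 of 15 fits that left out 1 library, and in the others the adjusted p reached 0.355. Cort counts per 100 Sst counts were 3.21 ± 0.694 in APP-PS1 mice given PBS, against 3.34 ± 0.452 in WT mice (SD, n = 5 each).

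Vip (ENSMUSG00000019772, chr10:5639218-5647617, plus strand), the peptide of interneurons that inhibit other interneurons, ranged from 17.7 to 25.3 CPM with a median of 21.1 in APP-PS1 mice given PBS, and from 15.3 to 25.8 CPM with a median of 22.3 in WT mice. The groups overlapped almost completely. For Vip the log2 fold change was 0.04 ± 0.14, with a 95% interval from -0.25 to 0.34, and it turned negative in 3 alternative settings and without any of 3 single libraries.

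Crhbp (ENSMUSG00000021680, chr13:95431371-95444924, minus strand) encodes a secreted protein that binds corticotropin-releasing hormone and keeps it from its receptors. It measured 20.4, 19.4, 20.6, 22.6 and 18 CPM in APP-PS1 mice given PBS, against 29.3, 29.4, 28.7, 31.9 and 24.4 CPM in WT mice. The groups did not overlap. Its log2 fold change was -0.47 ± 0.08, with an adjusted p of 0.00723 by edgeR.

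Crh (ENSMUSG00000049796, chr3:19693401-19695396, minus strand), the releasing hormone itself, is a stress peptide that cortical interneurons also make. It ranged from 0.718 to 1.84 CPM with a median of 1.34 in APP-PS1 mice given PBS, and from 1.01 to 1.88 CPM with a median of 1.63 in WT mice. The ranges overlapped, and the log2 fold change of -0.28 ± 0.26 had a 95% interval from -0.83 to 0.28, which also holds the change of Crhbp. Counts of Crhbp per count of Crh were 17.5 ± 5.59 in APP-PS1 mice given PBS, against 18.6 ± 3.57 in WT mice (SD, n = 5 each).

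Cck (ENSMUSG00000032532, chr9:121489824-121495694, minus strand), the cholecystokinin of basket cells and cortical excitatory neurons, measured 77.3, 77.3, 63.6, 89.6 and 67.8 CPM in APP-PS1 mice given PBS. In WT mice it measured 79.1, 96.4, 100.1, 86.3 and 88.8 CPM. Only APP-PS1 replicate 4 lay inside the WT range, and the log2 fold change was -0.25 ± 0.09 with an adjusted p of 0.310 by edgeR. Tac1 (ENSMUSG00000061762, chr6:7554879-7565834, plus strand), the precursor of substance P, measured 5.95, 7.88, 6.02, 7.53 and 9.17 CPM in APP-PS1 mice given PBS. In WT mice it measured 9.83, 9.32, 8.89, 8.98 and 6.50 CPM, so that the groups overlapped through APP-PS1 replicate 5 and WT replicate 5. Its log2 fold change was -0.18 ± 0.15, with an adjusted p of 0.676.

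Vgf (ENSMUSG00000037428, chr5:137026392-137033351, plus strand), a granin induced by neurotrophins and by activity, measured 55.5, 50.1, 41.5, 58.4 and 43.6 CPM in APP-PS1 mice given PBS. In WT mice it measured 63.6, 74.5, 76.0, 71.4 and 64.5 CPM. The highest APP-PS1 mouse was below the lowest WT mouse, and the log2 fold change was -0.50 ± 0.11 with an adjusted p of 0.0436 by edgeR. That call stood close to the threshold: it was kept in 4 of 15 fits that each left out 1 library (anti-CD8a replicate 3, APP-PS1 PBS replicates 1 and 4, WT replicate 5), and the adjusted p reached 0.176 without APP-PS1 PBS replicate 5. It was also lost with upper quartile scaling (adjusted p = 0.0504), with limma-voom (0.0501) and with the 2 groups alone (0.0780), while DESeq2 gave 0.00179. Scg2 (ENSMUSG00000050711, chr1:79434669-79440120, minus strand), secretogranin II, ranged from 181 to 211 CPM with a median of 202 in APP-PS1 mice given PBS, and from 204 to 235 CPM with a median of 212 in WT mice. The 2 ranges overlapped, and its log2 fold change of -0.12 ± 0.08 had a 95% interval from -0.28 to 0.04.

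Npy and Crhbp were called in all 15 fits that left out 1 library, with adjusted p-values up to 0.00556 and 0.0261. Without the 5 libraries above 1000 CPM of Ttr, which leaves 3 mice of each PBS group, 0 of the 10 genes passed in edgeR, while the log2 fold changes were -0.46 for Npy, -0.49 for Crhbp and -0.45 for Vgf, with adjusted p-values of 0.0579, 0.0842 and 0.647. Npy then ranged from 22.6 to 25.0 CPM in APP-PS1 mice given PBS and from 31.6 to 35.04 CPM in WT mice. The animal numbers in the labels fall into a lower and a higher range, whose meaning is not stated. In the lower range alone, 3 against 3 mice, the log2 fold changes were -0.48 for Npy, -0.48 for Crhbp and -0.38 for Vgf. In the higher range alone, 2 against 2 mice, they were -0.55, -0.53 and -0.66 in the same order, and 0 of 10 genes passed in either range.

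**Figure D2:**
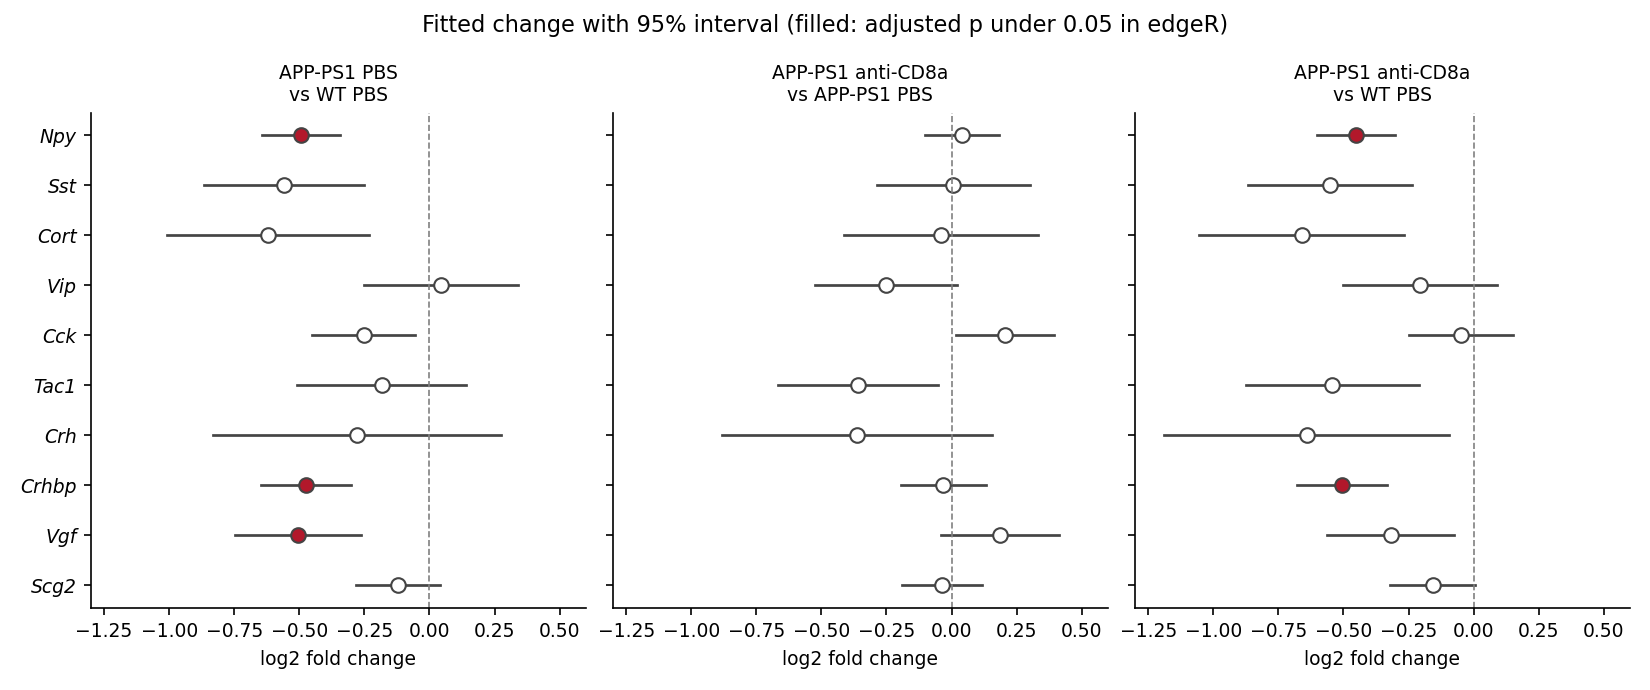
Fitted log2 fold change (horizontal axes) of each gene (rows) in the 3 comparisons, with 95% intervals, positive values meaning higher in the group named before vs; filled points have an adjusted p under 0.05 in edgeR. Filled points are Npy, Crhbp and Vgf on the left and Npy and Crhbp on the right, and the middle panel has none.

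The comparison of APP-PS1 mice given the antibody with APP-PS1 mice given PBS asks what the treatment did to these genes in the model. None of the 10 genes passed the test. The upper bounds for Npy and Crhbp were smaller than the estimated deficit of APP-PS1 against WT mice given PBS. The same held for Vgf, Sst and Cort, but not for Cck. For Vgf, Sst and Cort the bounds of 0.41, 0.30 and 0.33 were larger in size than the near ends of the deficit intervals. Those ends were -0.26, -0.25 and -0.23. For Tac1, Crh and Scg2 the interval of the deficit held 0, so the bound cannot be set against a deficit. Bound and deficit share the APP-PS1 mice given PBS, and the deficit has an interval of its own. Vgf and Cck had higher estimates, and Tac1, Crh and Vip lower ones. By edgeR, 0 of 10 genes passed an adjusted p of 0.05, as did 0.0% of all genes in each direction, and the smallest adjusted p of the 10 was 0.328. DESeq2 also called 0 of the 10, against 0.439% of all genes lower and 0.413% higher. At an unadjusted p under 0.05, 2 of the 10 genes remained, Tac1 lower and Cck higher, where 5.74% of all genes were lower and 7.59% higher. The median log2 fold change was -0.03, against 0.02 over all genes.

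Npy measured 22.0, 25.3, 22.6, 23.4 and 23.1 CPM in the mice given the antibody, against the 20.3 to 25.0 CPM of APP-PS1 mice given PBS. The ranges covered each other. For Npy the log2 fold change was 0.04 ± 0.07, with a 95% interval from -0.10 to 0.18. Crhbp measured 19.3, 21.5, 17.6, 20.4 and 20.0 CPM in the mice given the antibody, against 18 to 22.6 CPM in APP-PS1 mice given PBS, a log2 fold change of -0.03 with an interval from -0.19 to 0.13. For both genes the upper bound was below the size of the genotype difference under PBS.

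Sst measured 72.2, 77.4, 44.99, 66.5 and 73.1 CPM in the mice given the antibody, against 52.7 to 89.8 CPM in APP-PS1 mice given PBS, with a log2 fold change of 0.01 and an interval from -0.29 to 0.30. Cort measured 2.24, 1.97, 1.51, 2.13 and 2.25 CPM in the mice given the antibody, against 1.52 to 2.59 CPM in APP-PS1 mice given PBS, with a log2 fold change of -0.04. The ranges overlapped, and the sign of the Sst and Cort estimates changed when single libraries were left out.

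Vgf measured 62.4, 58.4, 42.9, 60.8 and 59.6 CPM in the mice given the antibody, against 41.5 to 58.4 CPM in APP-PS1 mice given PBS. In the mice given the antibody 4 of 5 values were above the highest of APP-PS1 mice given PBS, and replicate 3 stood apart below. Its log2 fold change was 0.19 ± 0.11, with an adjusted p of 0.452 by edgeR. Cck measured 77.9, 83.7, 84.2, 96.5 and 91.0 CPM in the mice given the antibody, against 63.6 to 89.6 CPM in APP-PS1 mice given PBS, and its log2 fold change of 0.20 ± 0.09 had an unadjusted p of 0.0342 and an adjusted p of 0.342 by edgeR. This difference was not alike in the 2 ranges of animal numbers. In the higher range Cck averaged 93.8 CPM in 2 mice given the antibody and 65.7 CPM in 2 given PBS. In the lower range the means were 81.9 and 81.4 CPM in 3 mice of each group, and the interaction of 0.59 on the log2 scale had an adjusted p of 0.396.

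Tac1 measured 6.84, 6.05, 4.21, 5.30 and 5.77 CPM in the mice given the antibody, against 5.95 to 9.17 CPM in APP-PS1 mice given PBS. In the mice given the antibody 3 of 5 values were below every value of APP-PS1 mice given PBS. Tac1 had a log2 fold change of -0.36 ± 0.14, with an unadjusted p of 0.0250 and an adjusted p of 0.328 by edgeR. Vip ranged from 15.5 to 20.5 CPM with a median of 18.8 in the mice given the antibody and had a log2 fold change of -0.25 ± 0.13. Crh ranged from 0.707 to 1.31 CPM with a median of 1.03 and had a log2 fold change of -0.36 ± 0.25. Scg2 ranged from 173 to 233.5 CPM with a median of 186 and had a log2 fold change of -0.04 ± 0.07. The ranges of these 3 genes overlapped those of APP-PS1 mice given PBS.

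The comparison of APP-PS1 mice given the antibody with WT mice given PBS joins genotype and treatment, and it shares its WT mice with the genotype comparison. Npy and Crhbp fell by 26.9 and 29.6%, and the other 8 genes had lower estimates without passing. All 10 estimates were thus below 0, as were 51.1% of those of all genes. By edgeR 2 of 10 genes fell and 0 rose, where 0.184% of all genes fell and 1.76% rose. Npy, Crhbp, Sst and Vgf, 4 of 10 genes, had ranges that did not overlap on the lower side, as did 0.875% of all genes. The median log2 fold change was -0.48, against -0.003 over all genes. DESeq2 called 5 of the 10, adding Sst, Cort and Tac1, where it called 0.516% of all genes lower.

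Npy averaged 23.3 ± 1.23 CPM in the mice given the antibody and 32.4 ± 2.33 CPM in WT mice (SD, n = 5 each), and its log2 fold change was -0.45 ± 0.07 with an adjusted p of 0.0021 by edgeR. Crhbp averaged 19.8 ± 1.45 CPM in the mice given the antibody and 28.7 ± 2.75 CPM in WT mice, and its log2 fold change was -0.51 ± 0.08 with an adjusted p of 0.00265. Both were called in all 15 fits that left out 1 library, and without the libraries rich in Ttr, with adjusted p-values of 0.0111 and 0.00897. In the lower range of animal numbers alone Crhbp passed and Npy did not, and in the higher range 0 passed. Sst averaged 66.8 ± 12.8 CPM in the mice given the antibody and 102 ± 10.3 CPM in WT mice, and its log2 fold change of -0.55 ± 0.15 missed the threshold with an adjusted p of 0.0796 by edgeR, against 0.00738 by DESeq2.

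Cort and Tac1 had log2 fold changes of -0.66 ± 0.19 and -0.54 ± 0.16 relative to WT, with adjusted p-values of 0.0994 and 0.1104 by edgeR. Leaving out 1 library brought Cort past the threshold without WT replicate 5 (adjusted p of 0.0236), Tac1 without anti-CD8a replicate 1 (0.0455) and Sst without APP-PS1 PBS replicate 4 (0.0296). Each passed in only 1 of 15 such fits. In the others the adjusted p by edgeR reached 0.490 for Cort, 0.484 for Tac1 and 0.208 for Sst. Vgf averaged 56.8 ± 7.90 CPM in the mice given the antibody and 70.0 ± 5.67 CPM in WT mice, with a log2 fold change of -0.32 ± 0.11 and an adjusted p of 0.242, although no treated mouse reached the lowest WT mouse. Crh, Vip, Scg2 and Cck had log2 fold changes of -0.64 ± 0.26, -0.21 ± 0.14, -0.16 ± 0.08 and -0.05 ± 0.09. Without a sex term 5 of the 10 genes passed, the same 5 that DESeq2 called; WT mice were mostly female and APP-PS1 mice mostly male by label.

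Particular libraries were low or high for many of the 10 genes. Anti-CD8a replicate 3 was the lowest of its group in 8 genes, all but Npy and Cck. That mouse also had the highest Cst7, a gene of plaque-associated microglia, at 53.2 CPM, and the lowest Gad1, an enzyme of GABA synthesis, at 282 CPM. WT replicate 5 was the lowest of its group in 6 genes, Sst, Cort, Vip, Tac1, Crh and Crhbp, and held the most Ttr, at 6468 CPM. APP-PS1 PBS replicate 4 was the highest of its group in 7 genes. Yet it too had the highest Cst7 of its group, at 31.6 CPM. Its Gad1, at 323 CPM, was the lowest of its group together with that of replicate 1. The part of these features in the results was not tested.

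No gene of the machinery that processes peptides and releases granules passed the test by edgeR. Of 18 such genes 0 passed in any of the 3 comparisons, and 2 to 4 had an unadjusted p under 0.05. Over all 18974 genes tested, 2173 had such a p for APP-PS1 against WT mice given PBS. The numbers were 2529 for antibody against PBS in APP-PS1 mice and 2296 for antibody against WT. DESeq2 called Syt4 and Resp18 lower, in 1 comparison each, where it called 0.439% and 0.516% of all genes lower. The 18 genes had median log2 fold changes of -0.07 for APP-PS1 against WT mice given PBS, -0.01 for antibody against PBS in APP-PS1 mice and -0.07 for antibody against WT. Chga, chromogranin A, had the smallest p of the list by genotype under PBS, at 77.5 ± 7.001 CPM in APP-PS1 and 91.8 ± 3.78 CPM in WT mice, with an adjusted p of 0.141 by edgeR. Syt4, a granule synaptotagmin, had the smallest p between the APP-PS1 groups, at 230 ± 17.0 CPM in the mice given the antibody and 280 ± 26.1 CPM in those given PBS, with an adjusted p of 0.223 by edgeR and 0.0467 by DESeq2. Resp18, an endocrine granule protein, had the smallest p between antibody and WT mice, at 28.7 ± 5.98 and 39.2 ± 5.93 CPM, with an adjusted p of 0.157 by edgeR and 0.0361 by DESeq2.

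Of 34 other peptide precursors 18 were expressed highly enough to be tested. In APP-PS1 mice given PBS 0 of the 18 passed by edgeR relative to WT mice. An unadjusted p under 0.05 was found for 4 of the 18, and for 2173 of all 18974 genes. DESeq2 called 2 of the 18 lower, Pnoc and Penk, where it called 0.39% of all genes lower. Pnoc, the precursor of nociceptin, had a log2 fold change of -0.56 ± 0.14 and Penk, the precursor of the enkephalins, of -0.52 ± 0.13, with adjusted p-values of 0.0691 and 0.0829 by edgeR and of 0.0118 for both by DESeq2. Pdyn, the precursor of the dynorphins, averaged 15.2 ± 2.95 CPM in the mice given the antibody and 11.1 ± 0.678 CPM in APP-PS1 mice given PBS, with a log2 fold change of 0.45 ± 0.13 and an adjusted p of 0.234 by edgeR. Pmch, the melanin-concentrating hormone of hypothalamic neurons, was the only other precursor called by edgeR, higher with a log2 fold change of 2.33 in the mice given the antibody relative to WT. Pmch was barely detected. In the mice given the antibody it averaged 0.758 ± 1.03 CPM (SD) and ranged from 0.206 to 2.60 CPM. In WT mice it averaged 0.230 ± 0.147 CPM and ranged from 0.0844 to 0.471 CPM. Among the mice given the antibody the SD exceeded the mean, so the estimate leans on the highest value. Whether the call holds without that mouse is not given here.

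Of 18 peptide receptors 16 were tested and 0 passed in any of the 3 comparisons, by edgeR or by DESeq2. By edgeR 2 to 4 of the 16 had an unadjusted p under 0.05, as had 2173 to 2529 of all 18974 genes. The somatostatin receptors Sstr3, Sstr2 and Sstr4 had log2 fold changes of -0.28, -0.40 and -0.23 in APP-PS1 relative to WT mice, both given PBS, and Crhr1, the main receptor of corticotropin-releasing hormone in brain, of -0.29, with adjusted p-values from 0.329 to 0.434 by edgeR. Sstr3 had a log2 fold change of 0.31 ± 0.10 between the antibody and PBS in APP-PS1 mice, with an adjusted p of 0.262.

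Markers of the interneurons that make many of these peptides had mostly lower estimates in both APP-PS1 groups than in WT mice. Of 19 markers 17 were tested. In APP-PS1 against WT mice given PBS 12 had lower estimates, as had 53.1% of all genes, and the median log2 fold change was -0.09. By edgeR 5 of the 17 had an unadjusted p under 0.05, as had 2173 of all 18974 genes, and 0 of the 17 passed. DESeq2 called 3 of the 17, Slc32a1 and Dlx1 lower and Sox6 higher, beside 80 lower and 281 higher of all 20529 genes it tested. Slc32a1, which loads GABA into vesicles, averaged 30.5 ± 3.08 CPM in APP-PS1 mice given PBS and 38.5 ± 2.59 CPM in WT mice, a log2 fold change of -0.34 ± 0.09 with an adjusted p of 0.0912 by edgeR and 0.0214 by DESeq2. Dlx1, an interneuron transcription factor, averaged 26.04 ± 3.10 CPM in APP-PS1 mice given PBS and 33.2 ± 2.13 CPM in WT mice, with a log2 fold change of -0.35 ± 0.09, the same adjusted p by edgeR and 0.0170 by DESeq2. Dlx5 and Dlx2, transcription factors of the same family, had log2 fold changes of -0.43 ± 0.16 and -0.41 ± 0.20, with adjusted p-values of 0.3095 and 0.445 by edgeR. In the mice given the antibody relative to WT, 16 of the 17 markers had lower estimates, as had 51.1% of all genes. The median log2 fold change of the markers was -0.20. Gad1, which makes GABA, averaged 320 ± 22.1 CPM in the mice given the antibody and 373.5 ± 21.1 CPM in WT mice, with a log2 fold change of -0.24 ± 0.06 and an adjusted p of 0.0607 by edgeR and 0.00870 by DESeq2. Sox6, needed by somatostatin and parvalbumin cells and also made by oligodendrocyte precursors, was the 1 marker with a higher estimate there. EdgeR called it, where 1.76% of all genes rose. Sox6 averaged 27.9 ± 1.55 CPM in the mice given the antibody against 24.4 ± 1.84 CPM in WT mice. Summed over the list, markers lay between 1185 and 1429 CPM in the mice given the antibody, 1353 and 1457 CPM in APP-PS1 mice given PBS, and 1394 and 1545 CPM in WT mice. Pan-neuronal markers had a median log2 fold change of -0.01 in APP-PS1 relative to WT mice given PBS. Microglial markers were called higher for 6 of 8 genes by edgeR in that comparison, where 0.938% of all genes rose. They summed to 356.9 to 678.7 CPM in the mice given the antibody, 364.6 to 485.7 CPM in APP-PS1 mice given PBS and 246.6 to 284.1 CPM in WT mice. Their part in the peptide values was not tested.

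Transcripts induced by neuronal firing had mostly lower estimates in APP-PS1 than in WT mice given PBS, and higher ones after the antibody. By edgeR 1 of 12 activity genes fell in APP-PS1 relative to WT mice given PBS, where 0.0896% of all genes fell. This was Egr3, an immediate early transcription factor, at 17.0 ± 3.35 CPM in APP-PS1 and 24.0 ± 2.01 CPM in WT mice, with a log2 fold change of -0.54 ± 0.11 and an adjusted p of 0.0234 by edgeR. In the mice given the antibody relative to APP-PS1 mice given PBS all 12 had higher estimates, and their median log2 fold change was 0.71. By edgeR 11 of the 12 had an unadjusted p under 0.05, beside 2529 of all 18974 genes, and 0 of the 12 passed. DESeq2 called 2 of the 12 higher, Npas4 and Egr4, where it called 0.413% of all genes higher. Npas4 had the smallest p, at 16.0 ± 2.67 CPM in the mice given the antibody and 8.29 ± 2.30 CPM in APP-PS1 mice given PBS, with an adjusted p of 0.223 by edgeR and 3.6e-05 by DESeq2. For the 8 hippocampus markers the median was 0.27 on the log2 scale in the same comparison, and -0.29 in APP-PS1 relative to WT mice given PBS. By edgeR 0 of the 8 were called in either, with 5 and 4 at an unadjusted p under 0.05. Of all 18974 genes 2529 and 2173 had such a p, in the same order. DESeq2 called 3 of the 8 higher after the antibody (Lct, Cabp7 and Tdo2), where it called 0.413% of all genes higher. It called 2 of the 8 lower in APP-PS1 relative to WT mice given PBS (Dsp and Lct), where it called 0.39% of all genes lower. For antibody against PBS and for APP-PS1 against WT under PBS, cortex markers had medians of 0.04 and -0.05. Striatum markers had -0.13 and -0.13, thalamus 0.19 and 0.10, and cerebellum -1.10 and 0.64. By edgeR 0 of these were called. Thalamus markers summed to 331 CPM in anti-CD8a replicate 4, where the group median was 81.2 CPM. The part of dissection in the peptide values was not tested.

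**Figure D3:**
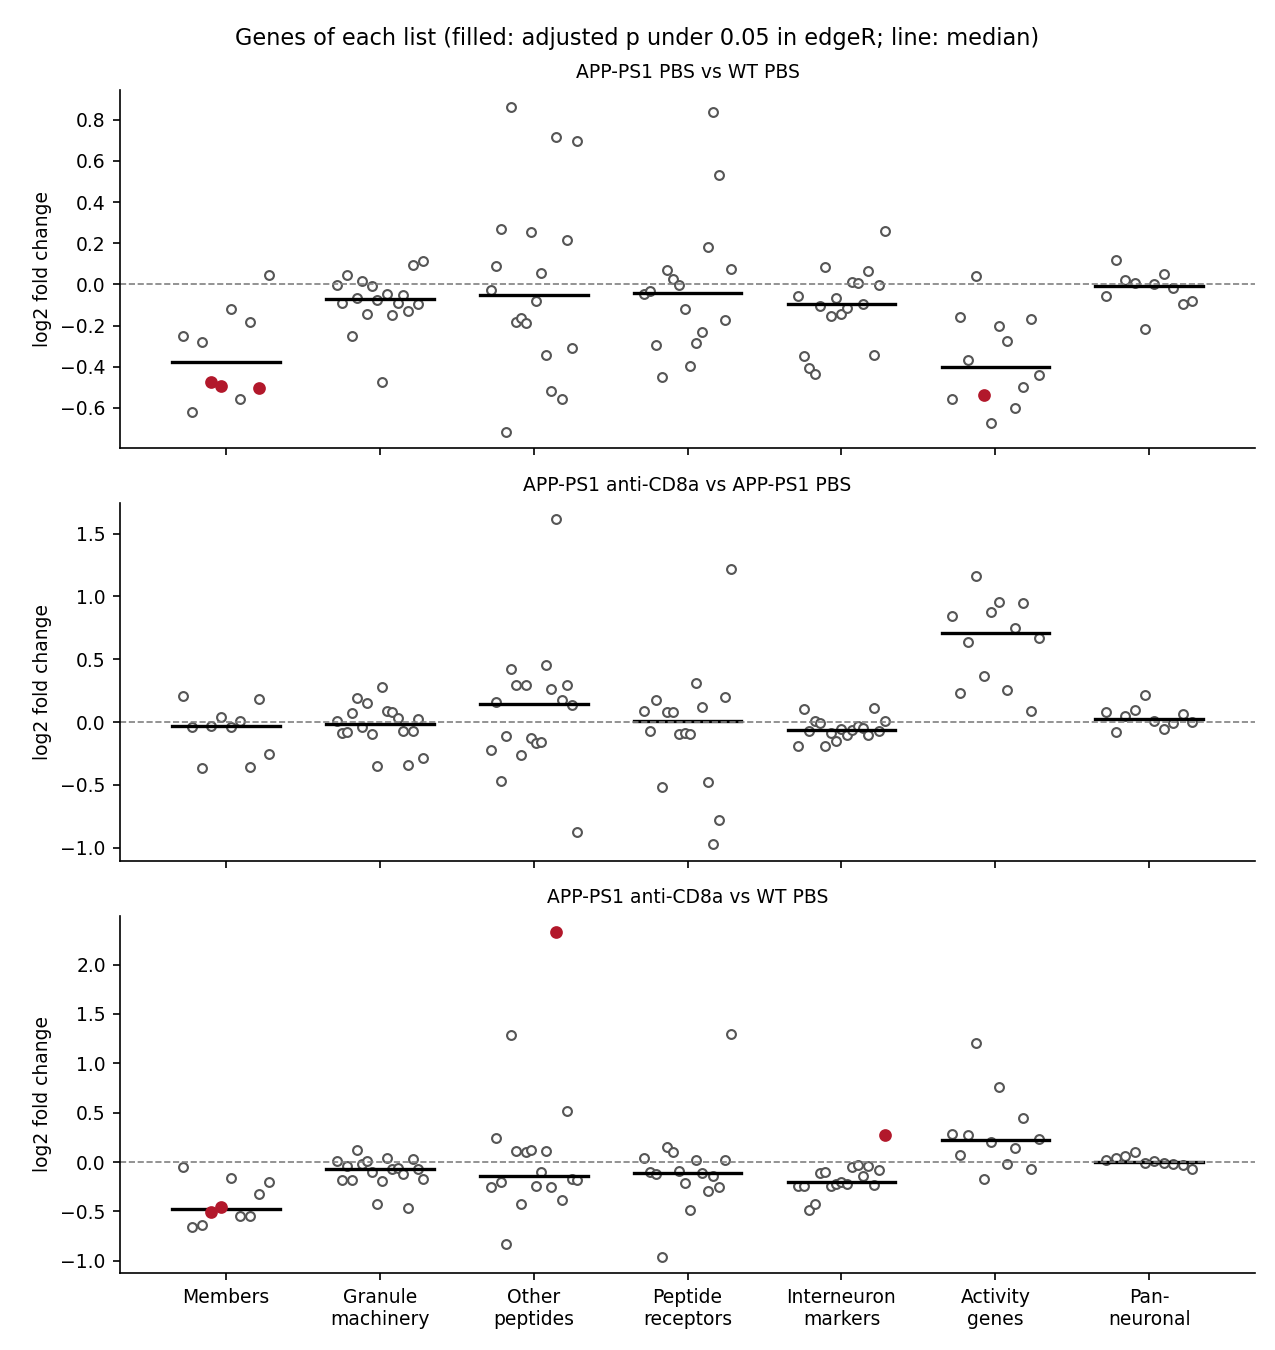
Log2 fold change (vertical axes) of the tested genes of 7 lists (horizontal axis, genes in alphabetical order within a list) in the 3 comparisons; lines are medians and filled points have an adjusted p under 0.05 in edgeR. The 10 genes at the left have medians of -0.38, -0.03 and -0.48 from top to bottom, and the granule machinery -0.07, -0.01 and -0.07.

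Within groups the 10 genes varied together to different degrees. After removal of group means from log2 CPM, 42 of the 45 pairs had a positive Pearson correlation over the 15 mice, with a median of 0.35. The share of positive pairs over all genes is not given here. Vip and Crh were the closest pair (r = 0.90, Spearman's rho = 0.85), with permutation p-values of 5e-05 and 6.6e-04, and adjusted values over 45 pairs of 0.00225 and 0.0149. Leaving out the 2 libraries farthest from the median of Vip gave r = 0.84. Npy and Crhbp came next among the pairs that passed (r = 0.80, rho = 0.88), with permutation p-values of 0.00047 and 0.00019, adjusted values of 0.0106 and 0.00855, and r = 0.71 without the 2 farthest libraries. Sst and Vgf had r = 0.83 and rho = 0.61 with adjusted permutation values of 0.0558 and 0.243. Sst and Cort had r = 0.65 and rho = 0.74 with adjusted values of 0.0639 and 0.0331. The highest correlation of Scg2 was 0.36, with Npy. The points share libraries, and so depth and dissection.

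**Figure D4:**
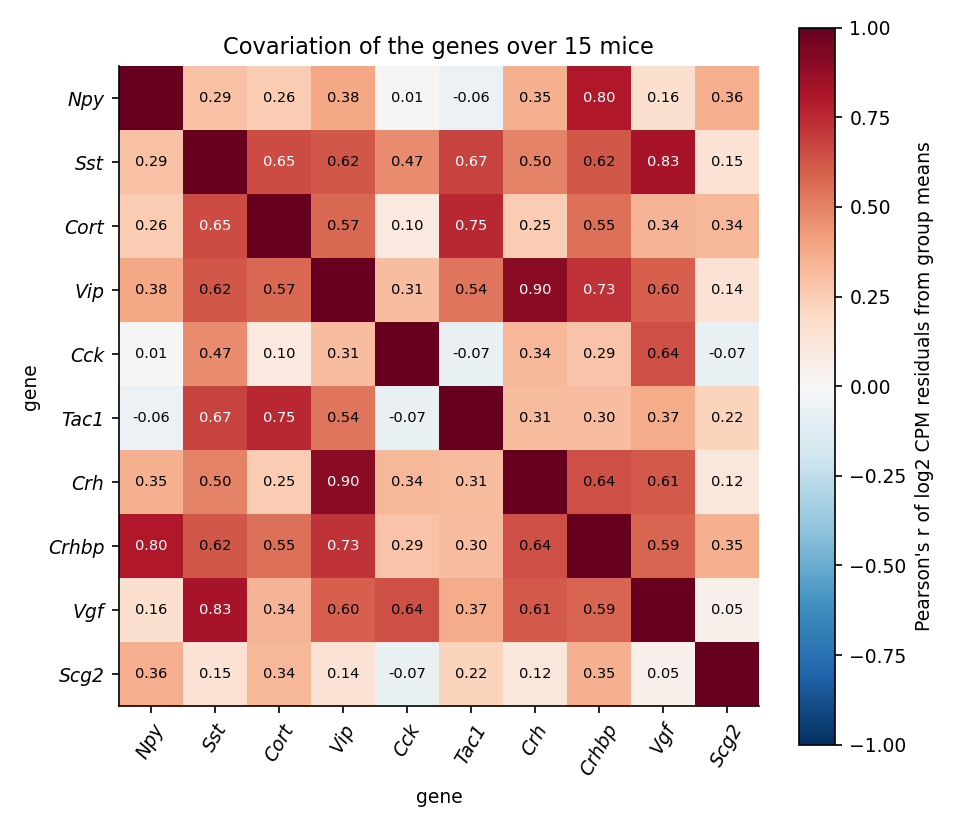
Pearson's r (colour and printed value) between each pair of the 10 genes (both axes), from log2 CPM after removal of group means over 15 mice. Vip with Crh at 0.90 and Npy with Crhbp at 0.80 are the 2 pairs that passed adjustment over 45 pairs in both coefficients.

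Among 15683 genes with a mean of at least 1 CPM, the nearest to each gene was found by the same correlation, as a description. Vip had Crh (r = 0.90) and Rab3b, a vesicle GTPase (0.89). Npy had Cyb5r1 and Atp2c2, a calcium pump of the secretory pathway (both 0.89), and Crhbp had Chst8, a sulfotransferase that acts on glycoprotein hormones (0.91), and Hrh3, a histamine receptor (0.90). Sst had Lrfn1 (0.89) and Ly6h (0.87), Vgf had Syngr3, a synaptic vesicle protein, and Gm13889 (both 0.90), and Cort had Bace2 (0.89) and Gpr101 (0.87). Cck had Cisd3 (0.91) and Fam20c (0.90), Crh had Nsfl1c and Aars (both 0.91), Tac1 had Ifit1bl2 (0.85) and Ifit1bl1 (0.83), and Scg2 had 2410004B18Rik (0.94) and Mrpl50 (0.93).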

How the data were processed

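The authors deposited raw read counts per Ensembl gene, 1 column per mouse. Alignment used Bowtie2 2.2.2 and counting HTSeq 0.11.2 on build GRCm38, with FastQC and DESeq2 also named, per the submitters' processing notes. Annotation release and strand setting: not given in the sources used here. Bowtie2 does not align across introns, so reads over exon junctions can be lost. The 5 HTSeq summary lines were left out of library sizes. Per library, 19.966 to 25.854% of reads had no feature, 1.635 to 1.787% were ambiguous and 2.699 to 2.917% mapped to several places.

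Groups were compared by the two-sided quasi-likelihood test of edgeR 4.0.16 (R 4.3.3, TMM scaling), fitted to all 15 libraries at once with terms for group and labelled sex, which left 11 residual degrees of freedom. It covered the 18974 genes that passed filterByExpr, and Benjamini-Hochberg adjustment over all of them used a threshold of 0.05. Errors of log2 fold changes are standard errors derived from the F statistic. CPM and RPKM (by the union of GENCODE M21 exons, same build) were computed here from the deposited counts. GENCODE has no other gene overlapping the 10. Exact permutation tests used log2 CPM with a prior count of 2; correlations used 100000 permutations within groups (SciPy 1.17.1). The fit was tested on simulated data.

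Labels make each library a separate mouse, and all 30 within-group pairs of libraries differed beyond sampling noise (chi-square of 7.62 to 38.7 per degree of freedom). No animal number is shared between groups. The 10 genes, the other lists, the alternatives and the tests were chosen with earlier results of these data known. Named genes were the 10, up to 4 of smallest p from each list, and the 2 nearest genes of each of the 10; others are named as checks. Of 186 list symbols 184 matched 1 row. Alternatives were DESeq2 1.42.0, limma-voom (limma 3.58.1), RLE and upper quartile scaling, no filter, no sex term, sex read from the genes, terms for animal number range and for choroid plexus RNA, each number range alone, leaving out the libraries rich in Ttr, the 2 groups alone, and omission of single libraries.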

Additional observations from a re-analysis of the deposited data

Results flagged for a closer look

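Among the 30 sets of 5 mice (10 genes in 3 groups), 2 held a value separated from the other 4 by more than Dixon's critical ratio of 0.71, which chance alone gives in about 1 of 20 such sets. Vgf in anti-CD8a replicate 3 was 42.9 CPM, where the other mice given the antibody lay between 58.4 and 62.4 CPM (ratio 0.795). Tac1 in WT replicate 5 was 6.50 CPM, where the other WT mice lay between 8.89 and 9.83 CPM (ratio 0.719).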

How the results depend on the processing

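No paired analysis was possible because no animal number is shared between groups in the labels. In APP-PS1 against WT mice given PBS the number of the 10 genes called was 3, from 2 to 4 when 1 library was left out, and 0 in each range of animal numbers alone and without the libraries rich in Ttr, which also leave fewer mice. In mice given the antibody against WT mice it was 2, from 2 to 3 when 1 library was left out, 5 with DESeq2 or with no sex covariate, 1 in the lower number range alone and 0 in the higher. Between the APP-PS1 groups it was 0 throughout. Over all genes, calls in the 3 comparisons in the same order were 195, 369 and 0, and 361, 533 and 132 with DESeq2; without anti-CD8a replicate 3 the 369 became 140. In APP-PS1 against WT mice given PBS they were 115 with no sex covariate, 98 without the Ttr-rich libraries, and 7 and 9 in the lower and higher number range. In antibody against WT mice they were 221 with the 2 groups alone, 199 without the Ttr-rich libraries, and 20 and 8 in these ranges. Between the APP-PS1 groups they were 1 with the 2 groups alone and 0 to 3 when 1 library was left out.

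Of 840 comparisons with the values given, 35 changed sign, and 0 of those 35 were of called values. In APP-PS1 against WT mice given PBS, Vip became -0.012 with no sex covariate, -0.0151 in the lower number range and -0.0001 with the range as a covariate. With the antibody against PBS, Sst became -0.0003 with RLE factors, -0.0012 with upper quartile, -0.0115 with limma-voom, -0.0044 with no sex covariate and with the choroid plexus covariate, -0.0048 with the 2 groups alone, -0.1646 in the lower number range and -0.082 without the Ttr-rich libraries. There too Vgf became -0.0087 in the lower range, Crhbp 0.0531 and Crh 0.1479 in the higher, and Npy -0.0348 without the Ttr-rich libraries. Against WT mice, Cck became 0.0993 in the higher range and 0.0436 without those libraries. Leaving out 1 library moved Vip between -0.1408 and 0.1736 in APP-PS1 against WT mice given PBS. With the antibody against PBS it moved Sst between -0.0635 and 0.1605, Cort between -0.1344 and 0.0977, Npy between -0.0064 and 0.0782, Crhbp between -0.0832 and 0.0237, and Scg2 between -0.1105 and 0.0077. The causes were not tested. Counts of 13 to 65 for Crh limit its precision most.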
